A study of Mus musculus with 16 samples.

Results

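Desmosomes are plaque-like junctions that tie the intermediate filaments of neighbouring cells together. Their membrane-spanning cadherins, the desmogleins and desmocollins, bind those of the next cell; inside the cell the armadillo proteins plakoglobin (Jup) and the plakophilins (Pkp) bind the cadherin tails, and desmoplakin (Dsp), a plakin, joins this plaque to keratin, desmin or vimentin filaments. Desmosomes are best known from epidermis, other epithelia and heart muscle, and several of their proteins also occur outside them, in adherens junctions, in endothelial junctions and free in the cell.

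The 9 genes described here are Dsp, Jup, Pkp1, Pkp2, Pkp3, Pkp4, the cadherins Dsg2 and Dsc2, and Perp, a tetraspan membrane protein of desmosomes and a p53 target. They are 9 of the 55536 genes in the count table and were picked by symbol. The set was chosen because Dsp was higher in K74R bone marrow and lower in K74R MSC than in WT, so those Dsp differences are given below as descriptions and carry no test. RNA-seq libraries came from mice labelled KLF K74R and mice labelled KLF WT, in 3 tissues. There were 3 K74R and 3 WT bone marrow libraries, 2 K74R and 2 WT MSC libraries, and 3 K74R and 3 WT libraries of tumors (up to 1000 mm3) made by MC38, a line of colon adenocarcinoma cells from mouse. Sample titles call the K74R mice KO, while the genotype label names a K74R change; no label names the gene further than KLF, and the sources used here do not state age or strain. The labels give the same MC38 line for the tumors of both genotypes. The abbreviation MSC is not spelled out in the labels. The labels do not say whether libraries of one group came from separate mice, so p-values reflect only how far these libraries scatter, and that scatter may be technical.

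Library totals lay between 14067259 and 18923751 counts. Levels are CPM, counts scaled to 1 common library total, and levels of different genes are compared only as CPM per kb of exon. Of 14 lists of cell type markers, the keratinocyte, megakaryocyte and fibroblast and stromal sums overlapped between genotypes in MSC. The other sums did not, nor did 59.6% of all genes tested there. The endothelial, adipocyte and macrophage sums are given here. The 6 endothelial markers summed to 13.6 and 22.2 CPM in K74R MSC, against 270.7 and 1414 CPM in WT MSC. The 6 adipocyte markers summed to 1888 and 2147 CPM in K74R MSC, against 890.4 and 989.1 CPM in WT MSC. The 6 macrophage markers summed to 1852 and 3625 CPM in K74R MSC, against 7453 and 5668 CPM in WT MSC, while the 10 fibroblast and stromal markers summed to 11505 to 16161 CPM in K74R MSC and 12468 to 13308 CPM in WT MSC. In bone marrow, 8 B cell markers summed to 865.9 to 1309 CPM in K74R and 381.8 to 820.3 CPM in WT. In the same libraries 7 neutrophil markers summed to 16476 to 17695 CPM in K74R and 20306 to 21612 CPM in WT. None of the markers of either list was called in marrow by edgeR. At an unadjusted p under 0.05, 7 B cell markers were higher and 4 neutrophil markers lower, and DESeq2 called 2 and 3 of them. Of all 14872 genes tested in marrow, 2646 had such a p and DESeq2 called 518. Epithelial markers were close to 0 in the tumors although the label is that of a carcinoma line: Epcam was at most 0.63 CPM, Krt8 at most 0.37 CPM and Krt18 at most 0.12 CPM, while Cdh1 was at 3.99 to 5.34 CPM in K74R and 4.09 to 8.03 CPM in WT tumors. In these bulk samples, fewer cells of a type and less RNA per cell cannot be told apart.

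Dsp lies on chromosome 13 (GRCm38, chr13:38151294-38198577, plus strand, 9659 exon bases), and Jup on chromosome 11 (chr11:100368958-100397763, minus strand, 6436 exon bases). Their promoters are shown because Dsp differed between genotypes in opposite directions in bone marrow and MSC and Jup is its direct partner in the plaque; the labels call the mutated gene KLF, the usual abbreviation of the Krüppel-like factors, which are known to bind CACCC and GC-rich boxes. The sequences are from RefSeq (GRCm38.p6), 250 bases before to 50 bases after the RefSeq start, on the strand of the gene. For Jup that start lies upstream of the gene coordinates given above, which are from GENCODE M21. Capitals mark CACCC and GGGCGG on either strand, so that the reverse complements GGGTG and CCGCCC are also in capitals.
Dsp, chr13:38151044-38151343: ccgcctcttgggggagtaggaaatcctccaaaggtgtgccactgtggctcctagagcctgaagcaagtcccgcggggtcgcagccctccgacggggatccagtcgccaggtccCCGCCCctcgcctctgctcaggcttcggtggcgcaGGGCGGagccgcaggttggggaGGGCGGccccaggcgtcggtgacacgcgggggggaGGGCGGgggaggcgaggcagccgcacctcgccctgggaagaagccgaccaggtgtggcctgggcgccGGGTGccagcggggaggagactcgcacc
Jup, chr11:100397741-100398040: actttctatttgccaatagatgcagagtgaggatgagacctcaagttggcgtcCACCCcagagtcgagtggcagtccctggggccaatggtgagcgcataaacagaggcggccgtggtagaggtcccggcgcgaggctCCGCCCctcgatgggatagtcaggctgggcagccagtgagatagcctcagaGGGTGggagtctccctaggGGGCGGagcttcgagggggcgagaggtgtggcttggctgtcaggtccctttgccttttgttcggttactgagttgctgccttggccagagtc

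The Dsp window was 73% G and C and held GGGCGG 4 times, at -137, -102, -80 and -45 from the start, and CACCC once, on the other strand at 23. The Jup window was 60.7% G and C and held each motif 2 times. Neither held TATAAA. On either strand, GGGCGG occurs in 35.7%, CACCC in 57.5% and TATAAA in 13.6% of the 32851 mouse promoter windows of this length, so these letters are common, and a match does not show that a factor binds. Of the members searched, Pkp4 also had an entry that could be matched, with 2 starts. Dsg2 and Dsc2, both on chromosome 18, were left out of this search.

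Desmoplakin, the link from plaque to filaments, differed between genotypes in opposite directions in marrow and MSC. In bone marrow Dsp had 12.8, 14.6 and 14.6 CPM in K74R libraries, against 2.46, 2.31 and 1.92 CPM in WT libraries. These are 195, 218 and 205 counts in K74R against 39, 36 and 27 counts in WT, and the groups did not overlap, as was so for 22.5% of all genes tested in marrow. The mean was 13.98 ± 1.07 CPM in K74R and 2.23 ± 0.280 CPM in WT (SD, n = 3 each), a ratio of 6.27, and the fitted log2 fold change was 2.61 with an SE of 0.17. In MSC the order was the other way round. Dsp had 0.214 and 0.545 CPM in K74R MSC, against 3.39 and 7.52 CPM in WT MSC, which are 4 and 9 counts in K74R against 58 and 120 counts in WT. The groups did not overlap, as was so for 59.6% of all genes tested in MSC; the WT mean was 14.4 times the K74R mean, and the fitted log2 fold change was -3.83 with an SE of 0.66. It was -3.13 without WT MSC 2, the library with the most Dsp, and -4.59 without K74R MSC 2. In tumors, which did not enter the choice of the genes, Dsp had 1.19, 0.879 and 0.530 CPM in K74R tumors, against 1.47, 0.528 and 0.416 CPM in WT tumors. These groups overlapped, and the log2 fold change of 0.10 (SE 0.53) did not pass edgeR's quasi-likelihood test (Benjamini-Hochberg adjusted p = 0.961). With 45 counts in all K74R tumors and 44 in all WT tumors, only a large difference would have been detectable at this depth.

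**Figure D1:**
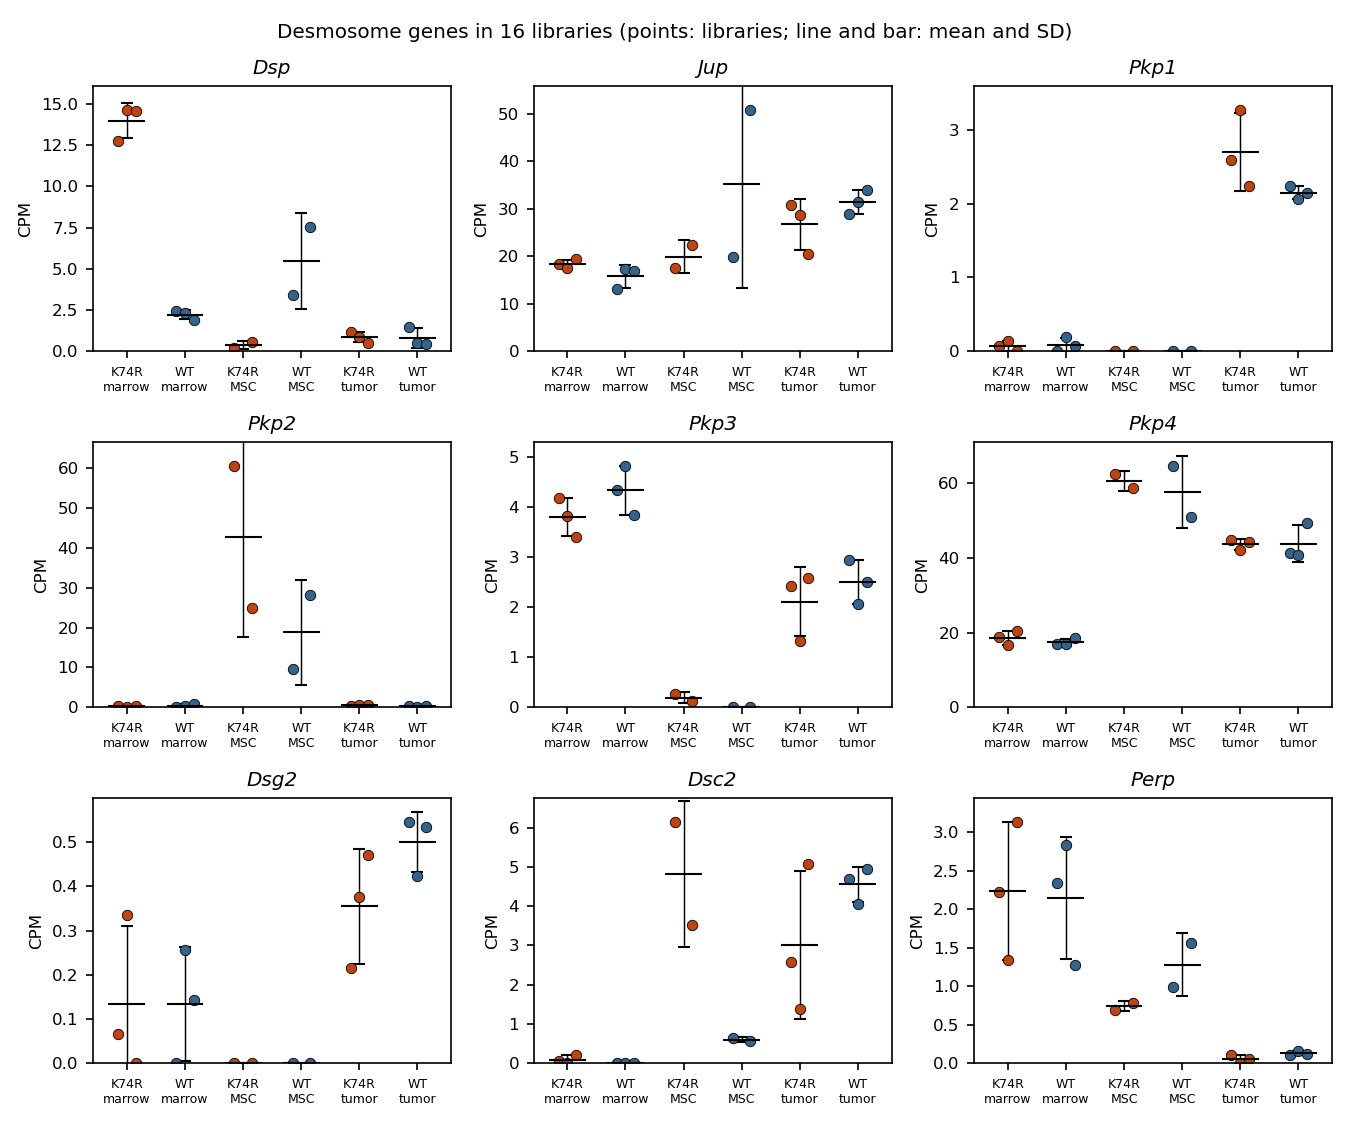
CPM of the 9 desmosome genes in each of the 16 libraries (points), with the mean (line) and SD (bar) of each group, K74R left of WT in each tissue and a separate linear axis for each gene. Dsp is at 12.8 to 14.6 CPM in K74R marrow against 1.92 to 2.46 CPM in WT marrow and at 0.214 and 0.545 CPM in K74R MSC against 3.39 and 7.52 CPM in WT MSC, while Jup and Pkp4 overlap or nearly overlap between genotypes.

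The order of Dsp levels over tissues therefore depended on the genotype. In K74R libraries marrow was highest, tumor next and MSC lowest. In WT libraries MSC was highest, marrow next and tumor lowest, with no overlap between neighbours. In the K74R libraries, tumor (0.530 to 1.19 CPM) and MSC (0.214 and 0.545 CPM) overlapped in range. The difference between the genotype effects in marrow and in MSC was 6.42 on the log2 scale; it was not tested because Dsp was chosen for it. A short gene on the opposite strand within Dsp, Gm10129, had at most 1 count in any library and 2 in all.

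Jup, or plakoglobin, is the armadillo protein that binds the cadherin tails and desmoplakin, and it also occurs in adherens junctions. In bone marrow it had 18.3, 17.4 and 19.3 CPM in K74R and 13.1, 17.4 and 16.8 CPM in WT. Every K74R library was above every WT library, by little, and 22.5% of all genes tested in marrow did not overlap. The log2 fold change of 0.19 (SE 0.13) did not pass the test (edgeR adjusted p = 0.462). In MSC, Jup had 17.5 and 22.4 CPM in K74R and 19.8 and 50.7 CPM in WT. The groups overlapped, and the WT MSC 2 library alone stood high, so that the log2 fold change of -0.81 (SE 0.45, edgeR adjusted p = 0.313) was 0.035 without it. In tumors Jup had 30.8, 28.8 and 20.5 CPM in K74R tumors and 28.9, 31.4 and 34.0 CPM in WT tumors, a log2 fold change of -0.24 (SE 0.15, edgeR adjusted p = 0.547).

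Pkp4, a p120-related plakophilin found in both desmosomes and adherens junctions, had overlapping levels in the 2 genotypes. It had 18.8, 16.6 and 20.4 CPM in K74R marrow, against 16.8, 16.9 and 18.5 CPM in WT marrow. In MSC it had 62.5 and 58.8 CPM in K74R, against 64.6 and 50.9 CPM in WT. In tumors it had 44.8, 42.1 and 44.3 CPM in K74R tumors, against 41.4, 40.7 and 49.5 CPM in WT tumors. The genotypes overlapped in all 3 tissues, with log2 fold changes of 0.06 in marrow (SE 0.12), 0.09 in MSC (SE 0.19) and -0.01 in tumor (SE 0.10), none past the edgeR test (adjusted p = 0.827, 0.799 and 0.982).

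Pkp2, the plakophilin of heart and simple epithelia, was mostly an MSC transcript in these data. It had 60.5 and 25.0 CPM in K74R MSC, against 9.53 and 28.1 CPM in WT MSC. The 2 libraries of each group differed by more than 2-fold and the groups overlapped; the log2 fold change of 1.21 (SE 0.63) did not pass the test (edgeR adjusted p = 0.285). In marrow Pkp2 had 11 counts over the K74R libraries and 18 over the WT libraries, and in tumor 26 over the K74R and 15 over the WT libraries, too few to be tested in either tissue. Every K74R tumor library was above every WT one, at 0.432 to 0.589 CPM in K74R and 0.159 to 0.416 CPM in WT, a separation that 16.9% of all genes tested in tumor had.

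Pkp1 and Pkp3 are the plakophilins of stratified and other epithelia. Pkp1 was found in tumors, with 2.59, 3.27 and 2.24 CPM in K74R tumors and 2.24, 2.06 and 2.14 CPM in WT tumors. Every K74R tumor was above every WT tumor, the nearest pair only just, and 16.9% of all genes tested in tumor did not overlap. The log2 fold change of 0.32 (SE 0.24) did not pass the edgeR test (adjusted p = 0.628). Pkp1 had 3 counts over the K74R marrow libraries, 4 over the WT marrow libraries, and 0 in every MSC library. Pkp3 had 4.18, 3.82 and 3.41 CPM in K74R marrow and 4.35, 4.82 and 3.84 CPM in WT marrow, ranges that overlap (log2 fold change -0.21, SE 0.21, edgeR adjusted p = 0.624). In tumors Pkp3 had 2.43, 1.32 and 2.59 CPM in K74R tumors and 2.94, 2.06 and 2.50 CPM in WT tumors (log2 fold change -0.24, SE 0.32, edgeR adjusted p = 0.799). In MSC it had 5 and 2 counts in K74R and 0 in both WT libraries, at least 2.19-fold higher in K74R with a floor of 3 counts over the WT group.

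Dsc2, a desmocollin, was the only member to pass a genotype test within a tissue, where Dsp in marrow and MSC was not tested. In MSC Dsc2 passed the count filter only through the K74R libraries, where it was high, so this call is a description. It had 6.14 and 3.51 CPM in K74R MSC, against 0.643 and 0.564 CPM in WT MSC, or 115 and 58 counts against 11 and 9. The groups did not overlap, as for 59.6% of genes tested in MSC, and the mean in K74R was 8.001 times that in WT. The log2 fold change was 3.01 with an SE of 0.48 (edgeR adjusted p = 0.0395), and DESeq2 also called it (adjusted p = 1.3e-04). The call was lost with limma-voom (adjusted p = 0.0592), and in edgeR without WT MSC 1 (adjusted p = 0.0687), without WT MSC 2 (adjusted p = 0.0991) and without K74R MSC 1 (adjusted p = 0.173). It stands among 3.34% of all genes tested that were called in MSC. In tumors Dsc2 had 2.59, 1.38 and 5.07 CPM in K74R tumors and 4.69, 4.07 and 4.94 CPM in WT tumors. These groups overlapped, with a log2 fold change of -0.59 (SE 0.41, edgeR adjusted p = 0.589). The genotype effect in MSC exceeded that in tumor by 3.63 on the log2 scale (SE 0.76, edgeR interaction adjusted p = 0.00907), and 10.6% of all genes passed this interaction test. In marrow Dsc2 had 4 counts over the K74R libraries and 0 over the WT libraries. Between marrow and tumor, 0 of 7 members other than Dsp had genotype effects that differed by edgeR, DESeq2 or limma-voom. Of all genes, 0.0385% passed by edgeR. Of these members 1 had an unadjusted p under 0.05, as did 2087 of 18191 genes. Between marrow and MSC 1 of the 7 passed, Pkp3, on the 7 counts given above, where 18.8% of all genes passed. Pkp3 entered this model through marrow and tumor and was too low to be tested within MSC, so its pass is a description.

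Dsg2, the desmoglein of simple epithelia and heart, was close to absent. It had 6 counts over the K74R and 6 over the WT marrow libraries, 18 over the K74R and 27 over the WT tumor libraries, and 0 in every MSC library. A count of 0 in MSC allows up to 0.0852 CPM over the K74R and 0.0907 CPM over the WT libraries. Such floors, set at 3 counts, cover counting error only. Perp had 2.22, 1.34 and 3.13 CPM in K74R marrow and 2.33, 2.83 and 1.28 CPM in WT marrow, with a log2 fold change of 0.02 (SE 0.38, edgeR adjusted p = 0.988). In MSC it had 0.694 and 0.788 CPM in K74R and 0.994 and 1.57 CPM in WT. These did not overlap, as was so for 59.6% of all genes tested in MSC. The difference did not pass (log2 fold change -0.76, SE 0.48, edgeR adjusted p = 0.372). In tumors Perp had 3 counts over the K74R and 7 over the WT libraries.

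Counted together, 0 of the 4 members other than Dsp that could be tested in marrow were called, where 0.773% of all genes were, and 0 of them had an unadjusted p under 0.05 in edgeR; DESeq2 and limma-voom also called 0. In MSC 1 of 5 was called by edgeR, where 3.34% of all genes were, and by DESeq2, and 0 by limma-voom. The 1 was Dsc2, which passed the count filter there only through the K74R libraries. In tumor 0 of 6 were called, Dsp included, where 0.0406% of all genes were, and none had an unadjusted p under 0.05 or was called by the other tools. The median log2 fold change of the members tested, without Dsp in marrow and MSC, was 0.04 in marrow, 0.09 in MSC and -0.12 in tumor, beside -0.0005, 0.0012 and 0.0049 over all genes tested in marrow, MSC and tumor.

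**Figure D2:**
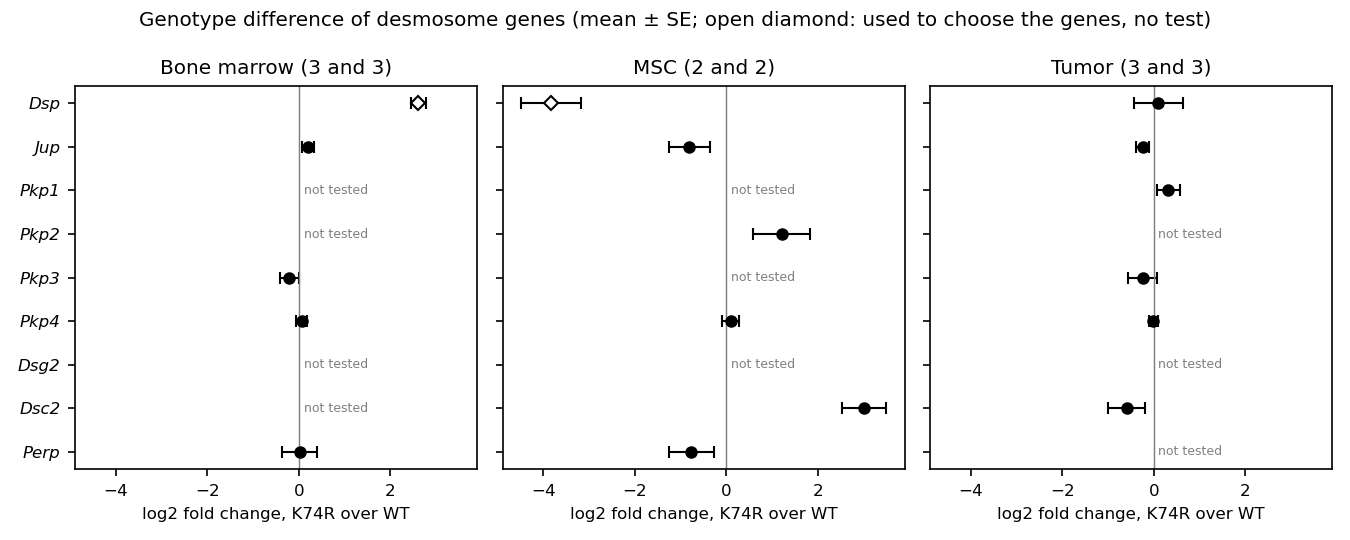
Log2 fold change of K74R over WT (x axis) with its SE for the desmosome genes that had enough counts, in bone marrow, MSC and tumor. The open diamonds mark Dsp in marrow (2.61) and MSC (-3.83), which were used to choose the genes. Among the filled circles only Dsc2 in MSC (3.01) passed the edgeR test, which it entered only through the K74R libraries.

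Per length, Pkp4 and Jup made up most of the desmosome gene expression. Their medians were 33.3% and 28.9% of the summed CPM per kb of the 9 genes in K74R marrow, and 38.6% and 30.6% in WT marrow. In tumors Pkp4 held 55.2% in K74R and 51.0% in WT, and Jup 32.7% in K74R and 32.5% in WT. The make-up in MSC differed most, with Pkp2 at 33.1% in K74R MSC and 16.2% in WT MSC, from 2 libraries each that lay far apart. Dsp took 14.1% in K74R marrow and 2.72% in WT marrow, and 0.186% in K74R MSC and 2.66% in WT MSC. Dsp was thus below Jup, its partner, in all 6 groups, at 1.45 CPM per kb against 2.85 CPM per kb for Jup in K74R marrow.

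**Figure D3:**
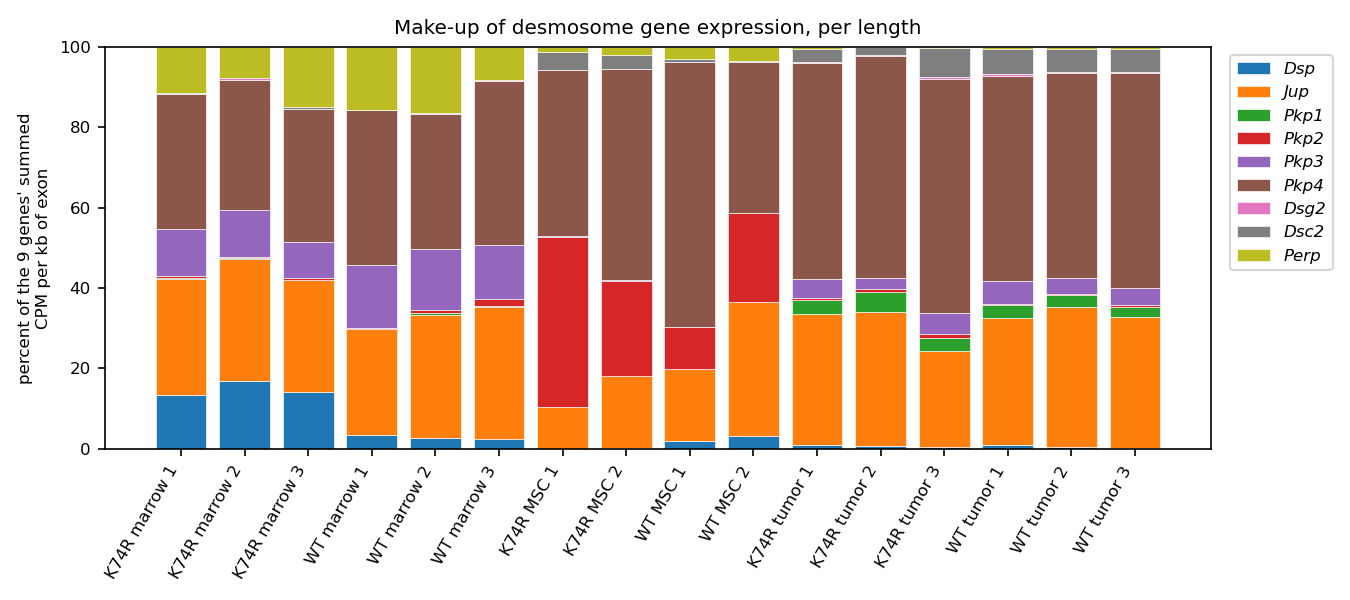
Share of each desmosome gene in the summed CPM per kb of exon of the 9 genes (y axis, percent), 1 bar per library, K74R left of WT in each tissue. Dsp (lowest segment) reaches a median of 14.1% in K74R marrow against 2.72% in WT marrow, Pkp2 appears in MSC, and Pkp1 and Dsc2 add segments in the tumors.

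Between tissues the members differed widely in the WT libraries. Dsp is left out of these counts, since its WT libraries entered the choice of the genes. Of the 7 other members tested, 6 were called between tumor and marrow, where 73.5% of all genes were, 5 between MSC and marrow (70.8% of all genes) and 6 between tumor and MSC (67.3% of all genes), shares near those of all genes. Pkp1 (4 counts over WT marrow, 0 over WT MSC) and Dsc2 (0 and 20 counts) passed the count filter only through tumor. Pkp2 (18 counts over WT marrow, 15 over WT tumor) passed it only through MSC. Perp (7 counts over WT tumor) passed it through marrow and MSC, and Pkp3 (0 counts over WT MSC) through marrow and tumor. Differences of these genes from the tissues where they had so few counts are therefore descriptions, also where they enter the counts. Pkp4 was higher in MSC than in marrow by 1.76 (log2, SE 0.14, edgeR adjusted p = 3.0e-06) and higher in tumor than in marrow by 1.15 (SE 0.13, adjusted p = 3.0e-05). Pkp2 was higher in MSC than in marrow by 5.57 (SE 0.66, edgeR adjusted p = 4.1e-05) and lower in tumor than in MSC, with a log2 fold change of -6.25 (SE 0.67, adjusted p = 2.6e-05). Pkp1 was higher in tumor than in marrow by 4.33 (SE 0.61, edgeR adjusted p = 2.0e-04) and at least 23.6-fold higher in tumor than in MSC. Perp was lower in tumor than in marrow (log2 fold change -4.14, SE 0.48, edgeR adjusted p = 3.3e-05) and than in MSC (-3.43, SE 0.53, adjusted p = 3.0e-04). Dsc2 was at least 69.0-fold higher in tumor than in marrow and higher in tumor than in MSC by 2.70 (SE 0.35, edgeR adjusted p = 2.9e-04). In the K74R libraries this last difference was -0.92 (adjusted p = 0.166). Jup was higher in tumor than in marrow by 0.82 (SE 0.29, edgeR adjusted p = 0.0287) and in MSC than in marrow by 1.20 (SE 0.32, adjusted p = 0.00759), but neither passed in the K74R libraries (adjusted p = 0.0520 and 0.318).

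The other proteins of the junction were examined from lists. Of 8 further desmosome genes, the epidermal desmogleins and desmocollins Dsg1a, Dsg1b, Dsg1c, Dsg3, Dsg4, Dsc1 and Dsc3 had at most 0.21 CPM in any library. The 10 keratinocyte markers summed to 51.8 to 62.7 CPM in K74R marrow and 36.2 to 58.8 CPM in WT marrow, 7.94 to 9.13 CPM in K74R MSC and 6.08 to 8.36 CPM in WT MSC, and 10.5 to 15.8 CPM in K74R tumor and 18.2 to 22.4 CPM in WT tumor. In marrow most of the sum was Ly6d, at 45.4 to 55.8 CPM in K74R and 30.0 to 51.1 CPM in WT, with Sfn at 5.05 to 6.10 CPM in K74R and 5.54 to 8.64 CPM in WT. In MSC it was mainly Trp63, at 3.15 and 3.82 CPM in K74R and 3.45 and 2.38 CPM in WT, and Sfn, at 3.63 and 2.67 CPM in K74R and 3.62 and 2.82 CPM in WT. The keratins Krt5 and Krt14 of the list were at 0 in every marrow and MSC library. The remaining one, Cdsn, which codes for the epidermal adhesion protein corneodesmosin, had 15.97 and 60.5 CPM in K74R MSC and 31.4 and 3.82 CPM in WT MSC, with no order between the genotypes. In tumors Cdsn had 2.32, 4.84 and 24.1 CPM in K74R tumors and 2.73, 3.28 and 2.79 CPM in WT tumors; 1 K74R library held most of its counts, and the log2 fold change of 1.83 (SE 0.74) did not pass (edgeR adjusted p = 0.416).

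Among the plakins, the cytolinker family of Dsp, 0 of 4 tested in marrow, 0 of 6 in MSC and 0 of 3 in tumor were called by edgeR. At an unadjusted p under 0.05, 0 differed in marrow, 4 were higher in K74R MSC and 1 was lower in K74R tumor. DESeq2 called 2 in MSC and 0 elsewhere. Of all genes tested, edgeR called 0.773% in marrow, 3.34% in MSC and 0.0406% in tumor. An unadjusted p under 0.05 was reached by 2646 of 14872 genes in marrow, 3765 of 14475 in MSC and 1661 of 14779 in tumor. DESeq2 called 518 of these genes tested in marrow, 1906 in MSC and 195 in tumor. The lists that follow have the same background. Periplakin (Ppl) had 4.54 and 1.45 CPM in K74R MSC and 0.468 and 0.251 CPM in WT MSC, with a log2 fold change of 3.06 (SE 0.75, edgeR adjusted p = 0.0834). Epiplakin (Eppk1) had 6.57 and 4.30 CPM in K74R MSC and 1.87 and 2.07 CPM in WT MSC, with a log2 fold change of 1.49 (SE 0.38, edgeR adjusted p = 0.0889). Both had the opposite direction to Dsp in these libraries. In marrow Evpl had a log2 fold change of -0.60 (SE 0.32, edgeR adjusted p = 0.371) and Macf1 one of 0.13 (SE 0.08, adjusted p = 0.457). In tumor Macf1 had -0.19 (SE 0.07, edgeR adjusted p = 0.400) and Dst -0.10 (SE 0.07, adjusted p = 0.566).

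Of 10 intermediate filament genes, 1 of the 6 tested in MSC rose and none fell by edgeR or limma-voom, where 3.34% of all genes were called by edgeR; 4 were higher and 1 was lower at an unadjusted p under 0.05, as with DESeq2. In the other tissues, 0 were called in marrow (5 tested) and tumor (3 tested) by edgeR, at an unadjusted p under 0.05 or by DESeq2. The one that rose was Krt7, a keratin of simple epithelia, with 13.4 and 9.63 CPM in K74R MSC and 0.643 and 1.25 CPM in WT MSC. Its log2 fold change was 3.62 (SE 0.44, edgeR adjusted p = 0.0270), and the call was lost without K74R MSC 1 (adjusted p = 0.119). Krt19, another simple-epithelial keratin, had 72.0 and 11.6 CPM in K74R MSC and 0.526 and 1.44 CPM in WT MSC (log2 fold change 5.45, SE 1.06, edgeR adjusted p = 0.0557). Krt18, also a simple-epithelial keratin, had 0.481 and 0.121 CPM in K74R MSC and 0.935 and 6.39 CPM in WT MSC (log2 fold change -3.52, SE 1.12, edgeR adjusted p = 0.127), the opposite direction to Krt7 and Krt19. Krt8, the usual partner of Krt18 and Krt19, was at most 0.11 CPM in any MSC library and Epcam at most 0.06 CPM. Vim, the filament of mesenchymal cells, had 6549 and 4482 CPM in K74R MSC and 1905 and 2628 CPM in WT MSC (log2 fold change 1.31, SE 0.35, edgeR adjusted p = 0.0958). Desmin (Des) had a log2 fold change of 1.78 in MSC (SE 0.35, edgeR adjusted p = 0.0561). In marrow Vim had -0.22 (SE 0.11, edgeR adjusted p = 0.340) and Des 0.69 (SE 0.62, adjusted p = 0.596), and in tumor Des had 0.15 (SE 0.15, adjusted p = 0.724) and Krt10 -0.08 (SE 0.32, adjusted p = 0.947).

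Of 10 adherens junction genes, 1 of the 8 tested in MSC fell and none rose by edgeR, where 3.34% of all genes were called; DESeq2 called 1 and limma-voom 0. In the other tissues edgeR and DESeq2 called 0 of 9 in marrow and in tumor, where 0 and 1 had an unadjusted p under 0.05. The one that fell was Cdh5, the cadherin of endothelial cells. It had 2.62 and 3.33 CPM in K74R MSC and 85.2 and 475.3 CPM in WT MSC (log2 fold change -6.55, SE 0.95, edgeR adjusted p = 0.0347). The call was lost with limma-voom (adjusted p = 0.0583), without K74R MSC 1 (adjusted p = 0.183) and without K74R MSC 2 (adjusted p = 0.0745). In marrow Afdn had a log2 fold change of 0.15 (SE 0.11, edgeR adjusted p = 0.521) and Ctnna1 -0.06 (SE 0.07, adjusted p = 0.683). In tumor Cdh5 had -0.36 (SE 0.13, edgeR adjusted p = 0.379) and Vcl -0.14 (SE 0.07, adjusted p = 0.487).

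Among the markers of other cell types in MSC, the endothelial, macrophage, dendritic cell and B cell sums were lower in K74R, as Dsp was. The adipocyte, epithelial, plasma cell, T and NK cell, muscle, neutrophil and erythroid sums were higher, as Dsc2 was. Of all genes tested in MSC, 59.6% did not overlap. Some of these sums were very low, with the neutrophil sum at most 3.36 CPM and the erythroid sum at most 2.30 CPM. In the T and NK cell sum, 5 of 6 markers were at 0 in each MSC library. The B cell sums lay close together, at 169.7 and 174.4 CPM in K74R and 177.3 and 181.9 CPM in WT. The fibroblast and stromal, keratinocyte and megakaryocyte sums overlapped. Of the 6 endothelial markers, 5 were tested and edgeR called 4 lower in K74R MSC, where 3.34% of all genes were called in either direction, among them Pecam1 with 3.31 and 2.79 CPM in K74R and 98.98 and 522.7 CPM in WT; DESeq2 called 5 and limma-voom 0. WT MSC 2, the library with the highest Dsp and Jup, also had the highest endothelial sum, and Lyve1 was the 1 marker at 0 in K74R MSC. Of the 6 adipocyte markers, 2 rose by edgeR and limma-voom and 4 by DESeq2; the 2 were Fabp4 with 450.6 and 427.6 CPM in K74R and 49.3 and 28.9 CPM in WT, and Plin1 with 81.2 and 89.9 CPM in K74R and 3.86 and 0.814 CPM in WT. Of the 6 macrophage markers, C1qa fell by edgeR, while limma-voom called 1 lower and DESeq2 5. The 10 epithelial markers summed to 21.6 and 86.1 CPM in K74R MSC and 2.22 and 9.39 CPM in WT MSC, and of the 3 tested edgeR called Krt7. The part of these cell types in the MSC differences of Dsp and Dsc2 was not tested. In marrow, endothelial markers summed to 120.5 to 163.3 CPM in K74R and 93.6 to 182.0 CPM in WT, overlapping where Dsp did not. Besides the B cell sum, plasma cell sums were higher in every K74R marrow library (135.5 to 196.7 CPM, against 97.4 to 124.1 CPM in WT). So were T and NK cell sums (68.5 to 74.7 CPM in K74R, 55.8 to 62.5 CPM in WT), while the neutrophil sum was lower. Of all genes tested in marrow, 22.5% did not overlap. The part of these cell types in the marrow difference of Dsp was not tested.

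**Figure D4:**
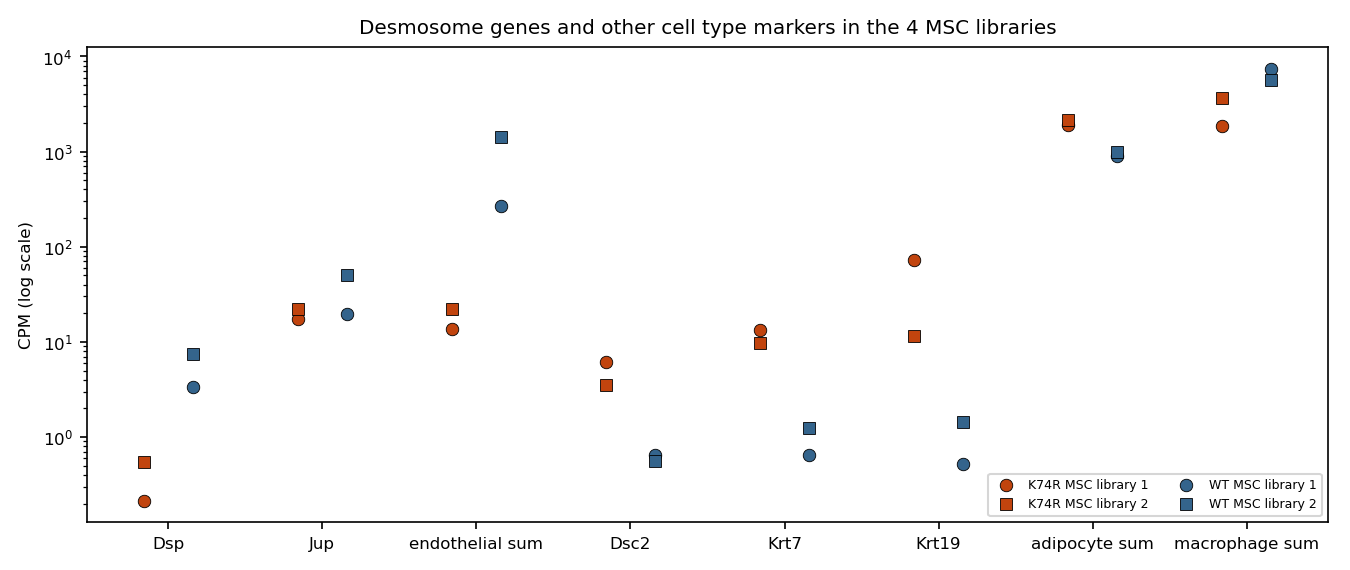
CPM (log axis) of Dsp, Jup, Dsc2, Krt7, Krt19 and the summed endothelial, adipocyte and macrophage markers in the 4 MSC libraries, K74R left of WT. Dsp and the endothelial sum are lower in both K74R libraries than in both WT libraries (endothelial 13.6 and 22.2 CPM against 270.7 and 1414 CPM), and Dsc2, Krt7, Krt19 and the adipocyte sum are higher.

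Of 5 genes of desmosome assembly and shedding, none was called in marrow, MSC or tumor by edgeR, 1, 2 and 1 had an unadjusted p under 0.05, and DESeq2 called 1, in MSC. The shares of all genes that passed are those given beside the plakins, also for the p53 targets below. Prkca, a kinase whose activity is known to weaken desmosomal adhesion, had a log2 fold change of 1.49 in MSC (SE 0.35, edgeR adjusted p = 0.0753) and -0.31 in tumor (SE 0.09, adjusted p = 0.340). Prmt1, an arginine methyltransferase known from human cells to modify desmoplakin, had -0.31 in marrow (SE 0.09, edgeR adjusted p = 0.133) and 0.81 in MSC (SE 0.26, adjusted p = 0.128). Adam10, a sheddase of cadherins, had -0.16 in marrow (SE 0.08, edgeR adjusted p = 0.337), and Gsk3b had -0.20 in tumor (SE 0.09, adjusted p = 0.445). Of 10 other p53 targets, listed because Perp is one, none was called by edgeR in any tissue, 1 in marrow, 0 in MSC and 2 in tumor had an unadjusted p under 0.05, and DESeq2 called 1 in marrow and 1 in tumor. Trp53inp1 had a log2 fold change of 0.47 in marrow (SE 0.16, edgeR adjusted p = 0.179) and Bax -0.26 (SE 0.14, adjusted p = 0.369). In MSC Zmat3 had -0.41 (SE 0.21, edgeR adjusted p = 0.281) and Ccng1 0.43 (SE 0.25, adjusted p = 0.335), and in tumor Sesn2 had 0.54 (SE 0.10, adjusted p = 0.196) and Zmat3 -0.23 (SE 0.09, adjusted p = 0.397).

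The genes whose levels followed Dsp most closely over the 16 libraries, after each tissue's mean was subtracted, were Trim65, Zbtb2, Mlxip, Timp4, Prdm2 and Kctd21, with Pearson correlations of 0.921, 0.918, 0.916, 0.913, 0.913 and 0.905 among 14579 genes. The points share libraries and the 6 groups, so these values are descriptions. Mlxip, a glucose-sensing transcription factor, had 118.4, 117.4 and 145.0 CPM in K74R marrow and 85.0, 95.2 and 77.4 CPM in WT marrow. In MSC it had 56.4 and 60.1 CPM in K74R and 84.3 and 85.9 CPM in WT. Its differences are far smaller than those of Dsp. They have the same direction, which follows from the choice of these genes by their correlation with Dsp. Timp4 was at most 0.64 CPM in any library. With Spearman's rho, 2 of the 6 genes, Trim65 and Mlxip, stayed among the top 6.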

How the data were processed

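The authors deposited unnormalized gene counts of 16 libraries, made from KAPA mRNA HyperPrep libraries per the labels' protocols. Reads were checked with FastQC and MultiQC and run through Trimmomatic 0.38, HISAT2 2.1.0 and featureCounts 1.6.0 on GRCm38, per the submitters' processing notes. The annotation release, strand setting and multi-mapping rule were not given in the sources used here. All 55536 gene IDs matched GENCODE M21. No column was left unused. In the column names, WT tumors carry a letter R and WT MSC the letters KCF, of unknown meaning.

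Levels are CPM on library totals. Genotypes were tested within each tissue with R 4.3.3 and edgeR 4.0.16 (filterByExpr, TMM, quasi-likelihood, Benjamini-Hochberg, threshold 0.05, over all genes tested). WT tissue contrasts used the WT libraries, and interactions all 16. DESeq2 1.42.0 and limma 3.58.1 voom, other scalings, filters, a replicate block and leave-one-out fits were alternatives. The code was checked on simulated data. Replicates of every group differed by more than sampling noise. All 9 members are named; of each list, genes that passed, or the 2 smallest p-values where none did, and the 6 genes most correlated with Dsp. Members and lists were chosen with earlier results of these data known. Floors are 3 counts.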

Additional observations from a re-analysis of the deposited data

Results flagged for a closer look

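Some genotype effects differed between tissues. The effect on Dsc2 in MSC exceeded that in tumor by 3.63 on the log2 scale (SE 0.76, edgeR interaction adjusted p = 0.00907), with both K74R MSC libraries above both WT ones and overlapping tumors. The call held in every alternative run. The effect on Pkp3 in marrow minus that in MSC was -5.11 (edgeR interaction adjusted p = 0.0147), and that in MSC minus that in tumor was 5.13 (adjusted p = 0.0230). Both rest on 7 counts in the K74R MSC libraries against 0 in the WT MSC libraries, so their size depends on the prior count and is no bound. Of all genes, 18.8% passed the test of marrow against MSC and 10.6% that of MSC against tumor. The effect on Dsp was higher in every K74R marrow library and lower in every K74R MSC library, a difference of 6.42 between the effects. This difference was not tested, since Dsp was chosen for it. No group had the 4 libraries needed to look for a sample that stands apart.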

How the results depend on the processing

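The number of genes called in marrow was 115, against 875 with no filter on low counts, 518 with DESeq2, 60 with all 16 libraries in 1 model and 11 to 684 when 1 library was left out (11 without WT 3, 684 without WT 2). In MSC it was 484, against 3063 with no filter, 1906 with DESeq2, 4431 with all 16 libraries and 0 to 581 with 1 library left out (0 without K74R 1). In tumor it was 6, against 810 with no filter, 195 with DESeq2, 0 with all 16 libraries and 0 to 124 with 1 left out (124 without K74R 1). Whether replicate numbers pair the samples could not be settled from these libraries. Correlations of same-numbered libraries were 0.180, 0.0738 and -0.0369 in marrow and 0.0135, -0.0451 and 0.0395 in tumor. Those of different numbers ran from -0.150 to 0.0972 in marrow and from -0.0634 to 0.0488 in tumor. In MSC, 2 libraries a group force the same-numbered value (-0.128) to mirror the crossed one (0.128). With the replicate block, 1135 genes were called in MSC and 13 in tumor; with crossed MSC numbers, an alternative chosen after seeing the data, 1943. Members called in MSC other than Dsp numbered 1, against 3 with no filter, 0 with limma-voom, 2 with all 16 libraries, 2 with the crossed block and 0 to 1 with 1 library left out. Members called in the difference of marrow and MSC numbered 1, against 3 with no filter and 0 to 1 with 1 left out, and in that of MSC and tumor 2, against 1 to 2 with 1 left out. The sign of small effects turned: Perp in marrow was -0.011 with limma-voom and -0.28 to 0.27 with 1 library left out, and Pkp4 in tumor was 0.011 with upper quartile factors, 0.0011 with limma-voom and -0.065 to 0.094 with 1 left out. With 1 left out, Jup in MSC ranged from -1.34 to 0.035, Pkp4 in MSC from -0.061 to 0.26, Dsp in tumor from -0.20 to 0.86, Pkp3 in tumor from -0.42 to 0.0070, Pkp2 of tumor over marrow from -1.22 to 0.15 and Jup of tumor over MSC from -0.91 to 0.47. In the K74R libraries, Dsp was -5.11 for MSC over marrow and 0.97 for tumor over MSC, Jup 0.18 and Dsc2 -0.92 for tumor over MSC, and Pkp2 0.86 for tumor over marrow. The cause of these changes was not tested. With 2 libraries a group in MSC, leaving 1 out assumes that the lone one varies like the others. Members with under about 10 counts a group are limited by depth.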

Other observations

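Genes reaching into the 500 kb on either side of Dsp, a set chosen after values were seen, were not called in any tissue by edgeR. These were 0 of 10 tested in marrow, 0 of 9 in MSC and 0 of 9 in tumor, with 2, 3 and 1 at an unadjusted p under 0.05. Over all genes tested, 2646 of 14872 in marrow, 3765 of 14475 in MSC and 1661 of 14779 in tumor had such a p. The MSC log2 fold change of Bmp6, the bone morphogenetic protein gene in this window, was -2.11 (edgeR adjusted p = 0.0792).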
